A study of Mus musculus with 6 samples.

Results

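The genes described here are 38 neuronal genes, of 22907 named genes on the array. They were taken as all non-control probes whose listed RefSeq transcript belongs to 1 of the 38 symbols, which gave 58 probes. Of these genes, 22 had 1 probe, 13 had 2 and 3 had more. Probes that the array names only by a clone, an Ensembl transcript or coordinates were not matched, so a gene may have further probes not counted here. The label of the group, neuronal genes, fits only in part what was measured, since 18 of the 38 were above background on no array.

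Neurons are recognised by a small set of genes whose products build the axon and its filaments, load and release synaptic vesicles, make or package transmitters and process neuronal RNA. Proneural transcription factors of the basic helix-loop-helix families Neurog and Neurod switch such genes on during differentiation, and the repressor REST, which binds an element called RE1 near many of them, keeps them low in non-neuronal and stem cells. Glioblastoma stem cells are grown as neurospheres in growth factors that favour an undifferentiated state, and parts of the neuronal programme can be expressed in them.

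The 6 one-colour arrays measured total RNA from cells of 1 mouse glioblastoma stem line that came from brain tumours induced with the SB transposon and was kept as neurospheres, without serum and with EGF and bFGF added. The 3 control arrays held RNA of cells with a lentiviral non-target shRNA, and the 3 knockdown arrays held RNA of cells with a lentiviral shRNA against Ggct, which encodes gamma-glutamylcyclotransferase. Both groups thus share the line and a lentiviral hairpin, and the titles of the knockdown samples name a single hairpin. The labels give a shared day for each control and knockdown array of the same number, here called a pair, and do not say whether arrays of a group came from separate cultures beyond that, so the p-values reflect array-to-array spread, which may be technical.

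Values are log2 signals from which the array's own 75th percentile was subtracted, so that 0 is that percentile. They are compared between arrays for 1 probe. The exceptions are the choice of the brightest probe of a gene and the summed signals of marker lists near the end, where probes are added. The mean signal of Ggct itself was 3.58 ± 0.23 in control cells and 0.61 ± 0.35 after knockdown (SD, n = 3 each). From 54.5% to 56.8% of probes were well above background per array, none was saturated, and the number of arrays limits the precision. Knockdown replicate 1 stood apart, with a first principal component of 46.6 where knockdown replicates 2 and 3 had 9.1 and 15.4. Of the stem cell markers, Nes, Sox2, Prom1, Msi1, Vim, Cd44, Bmi1 and Sox9 were above background on all 6 arrays, and Olig2 and Fut4 on none.

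In the comparison of knockdown with control, which asks what suppression of Ggct does to expression, 1 of the 18 neuronal genes that could be tested rose, 0 fell and 17 did not pass. The gene that rose was Stmn3, which encodes a stathmin-family protein that binds tubulin in neurons. Its signal was not well above background in any of the 3 control arrays and was so in all 3 knockdown arrays. Over all 14151 genes tested, 7.41% were called (limma adjusted p below 0.05), 4.57% higher and 2.84% lower, so a single call among 18 is near that background and is not a result about the group. The median log2 fold change of the 18 was 0.18, against 0.02 for all genes tested, and the pairs taken singly gave medians of 0.08, 0.13 and 0.21. It was 0.14 when knockdown replicate 1 was left out. The 18 include Stmn3, which was tested only because it was above background in the knockdown.

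A smaller share of these 38 genes was detected than of all named genes. A gene was counted as detected on an array when any of its probes carried the scanner's flag for a signal well above background. By that flag 16 of the 38 genes were detected on all 6 arrays, or 42.1%, against 58.5% of all named genes, and 18, or 47.4%, were detected on none, against 35.1% of all named genes. The share tested, which needed at least 3 of the 6 arrays, was 47.4% against 61.8%. Within the 38 genes the share tested differed by role, from 0% (transmitter) and 30.8% (transcription factors) to 100% (synaptic vesicle). In the further neuronal lists described below it ran from 58.3% (transcription factors), also below that of all named genes, to 93.8% (cytoskeleton). With the scanner's weaker flag, a signal significantly above the local background, 25 of the 38 were detected on at least 3 arrays, and 17080 of the 22907 named genes.

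**Figure D1:**
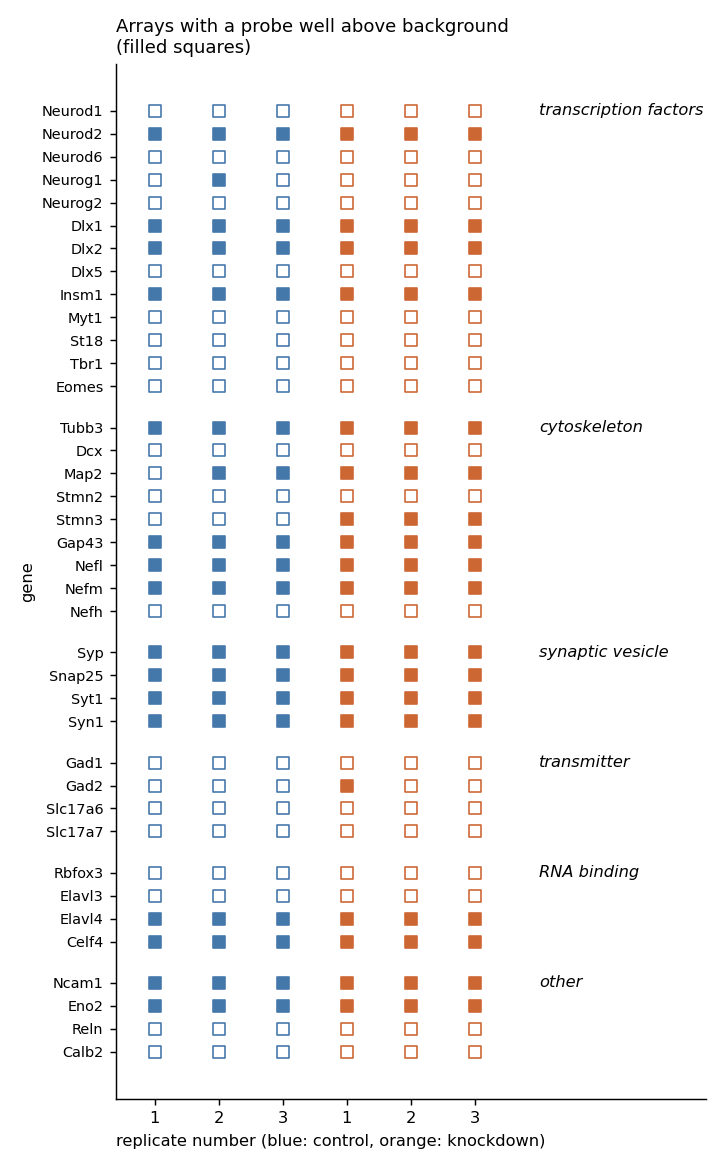
Detection of the 38 neuronal genes on each array. Rows are genes grouped by role, columns are the replicate numbers of control (blue) and knockdown (orange) arrays, and a filled square means at least 1 probe well above background; the 4 vesicle genes were filled throughout, the 4 transmitter genes were almost empty, and Stmn3 was filled in the knockdown alone.

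The undetected genes came from every role except the synaptic vesicle genes. Among transcription factors, Neurog2, Neurod1, Neurod6, Dlx5, Myt1, St18, Tbr1 and Eomes were above background on no array. Neurog2 and Neurod1 drive neuronal commitment, Tbr1 and Eomes mark stages of cortical excitatory neurons, and Myt1 and St18 are related zinc finger factors. Of the cytoskeletal genes, Dcx, which marks migrating young neurons, Stmn2, a stathmin of growth cones, and Nefh, the heavy neurofilament subunit, were detected on none. The same held for Gad1, an enzyme of GABA synthesis, for Slc17a6 and Slc17a7, the vesicular glutamate transporters, and for Rbfox3, the NeuN antigen. Elavl3, Reln and Calb2, which encode a neuronal RNA-binding protein, a secreted guidance protein and a calcium-binding protein of interneurons, complete the 18. Their 29 probes lay between -7.95 and -5.85 across the arrays, below the lowest signal flagged as well above background on each array, which ran from -5.62 to -5.05. Values in that range have no order, and no change is given for them.

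Of the detected genes, 3 others differed between arrays in detection. Gad2, the second GABA-synthesising enzyme, was above background on knockdown replicate 1 alone, where its signal was -5.14, against -6.87 and -6.68 on the other knockdown arrays. The control arrays gave Gad2 signals of -5.26, -6.84 and -5.92, none of them above background, so the groups overlapped. Neurog1, a proneural factor, was above background on control replicate 2 alone, at -4.86, and lay between -5.71 and -5.36 elsewhere. Map2, a microtubule protein of dendrites, was above background on 2 control and 3 knockdown arrays. Its control signals were -5.02, -4.16 and -3.86 and its knockdown signals -3.95, -3.77 and -3.57. The Map2 groups overlapped, and the log2 fold change was 0.58 ± 0.29 (SE, adjusted p = 0.259 in limma), or 0.15 with normexp background correction. A second Map2 probe for the same transcript was well above background on no array, so no change is given for it. It carried the scanner's weaker flag on every array and read lower in all 3 pairs, with overlapping groups.

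Promoter sequence was compared for the genes with an entry in the RefSeq promoter table of GRCm38.p6, which held windows from 250 bases before to 50 bases after a start for 26 of the 38. The windows were searched on both strands for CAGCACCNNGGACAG, the core of the RE1 element bound by REST, allowing 1 mismatch among its 13 fixed letters. It was found in 3 of the 26 genes, Syn1, Gad2 and Slc17a6, and in 57 of the 27025 genes with a window, or 0.211%. A match describes the letters and is not a site shown to be bound. The sequences are shown because these 3 genes differ in detection, Syn1 being above background on all 6 arrays, Gad2 on 1 and Slc17a6 on none. Capitals mark the match, and the window of Stmn3, the gene that rose, is shown in full before its start, with no match in these letters.
Syn1 (chrX:20920919-20921168, minus strand, match beginning 230 bases before the start): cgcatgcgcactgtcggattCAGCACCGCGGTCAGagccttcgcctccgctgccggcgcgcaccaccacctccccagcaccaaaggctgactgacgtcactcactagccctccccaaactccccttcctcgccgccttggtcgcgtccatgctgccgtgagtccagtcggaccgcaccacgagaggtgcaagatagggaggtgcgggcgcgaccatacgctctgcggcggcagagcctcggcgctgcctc
Gad2 (chr2:22622151-22622189, plus strand, match beginning 164 bases before the start): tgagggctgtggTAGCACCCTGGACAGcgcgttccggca
Slc17a6 (chr7:51621864-51621878, minus strand of a plus-strand gene, within the transcribed part): CAGGACCACGGACAG
Stmn3 (chr2:181314501-181314750, minus strand): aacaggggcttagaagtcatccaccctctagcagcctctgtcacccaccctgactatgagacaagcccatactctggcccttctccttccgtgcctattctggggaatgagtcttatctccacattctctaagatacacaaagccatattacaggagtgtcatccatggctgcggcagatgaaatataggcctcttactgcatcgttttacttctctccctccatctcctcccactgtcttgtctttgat

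The gene Rest was itself detected on all 6 arrays. Its signals were 1.79, 1.77 and 1.67 in control and 1.02, 1.67 and 1.40 in knockdown arrays. All 3 knockdown arrays were lower than every control array, by as little as 0.003, with replicate 1 the lowest. The log2 fold change was -0.38 ± 0.17 (SE), with a 95% interval from -0.78 to 0.03, and it did not pass (limma adjusted p = 0.231). Without knockdown replicate 1 it was -0.21. Of the 19 genes in the list of REST, its corepressors and repressors of proneural factors, 2 rose and 0 fell, against 4.57% and 2.84% of all genes tested, with a median of -0.05. With the replicate block 1 passed. The rises were Id3 (1.38 ± 0.22, SE; adjusted p = 0.0162 in limma) and Id2 (1.15 ± 0.27, SE; adjusted p in limma = 0.0439; 0.0734 with the block), which encode proteins that sequester the partners of proneural factors. Neither passed without control replicate 1, 2 or 3 or without knockdown replicate 3 (limma adjusted p from 0.0509 to 0.148). The other members did not pass, among them the corepressor genes Rcor1 and Kdm1a.

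The 9 genes of the cytoskeleton and of growing axons held the only call. Stmn3 has 2 probes for 1 transcript. The brighter gave -6.16, -7.39 and -6.93 in control and -3.84, -4.24 and -3.82 in knockdown arrays. The other gave -6.84, -7.24 and -7.31 in control and -4.25, -4.84 and -4.54 in knockdown arrays. With either probe no control array was well above background, every knockdown array was, and the groups were far apart. By the scanner's weaker flag, each probe was detected on 2 of the 3 control arrays, so Stmn3 is not shown to be absent from control cells.

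Because the control level of Stmn3 is known only as an upper limit, its change is a bound. With the brighter probe the knockdown was at least 2.55-fold higher, and with the other at least 1.71-fold, measured as the knockdown mean against the lowest signal flagged as well above background on each control array. The measured means of the brighter probe were -6.83 ± 0.63 in control and -3.97 ± 0.23 in knockdown (SD, n = 3), with a limma adjusted p of 0.00768. It read higher in all 3 pairs, with measured differences of 2.32, 3.16 and 3.11, whose sizes rest on control signals not well above background. Without knockdown replicate 3 the limma adjusted p was 0.0516, without pair 3 it was 0.125, and with normexp background correction, whose offset compresses dim signals, the log2 fold change was 0.37 (limma adjusted p = 0.194). Fitted as single probes over all 31804 probes kept, where 1.75% were called, both Stmn3 probes passed (limma adjusted p = 0.0285 and 0.0147), and with the replicate block neither did (0.0742 for both).

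The neurofilament genes Nefl and Nefm, which encode the light and medium subunits of the axonal filament, were lower in every knockdown array than in every control array, and neither passed. Nefl gave 5.71, 6.30 and 5.96 in control and 4.86, 5.71 and 5.50 in knockdown arrays, with a gap of 0.007 between the groups. Its log2 fold change was -0.63 ± 0.24 (SE; 95% interval from -1.20 to -0.07; adjusted p = 0.16 in limma), and -0.39 without knockdown replicate 1. Nefm had 2 probes, and both gave separate groups. The brighter read 6.02, 6.36 and 5.91 in control and 5.24, 5.68 and 5.45 in knockdown arrays, and the other read 4.12, 4.50 and 4.43 against 3.74, 3.77 and 3.54. The brighter Nefm probe had a log2 fold change of -0.64 ± 0.17 (SE; 95% interval from -1.03 to -0.24; adjusted p = 0.065 in limma). Its adjusted p in limma ran from 0.0315 to 0.145 over 9 alternative settings, 4 of which passed it. In the RefSeq gene order of GRCm38, Nefl and Nefm are neighbours on chromosome 14, with no other protein-coding gene between them, while Nefh, which was not detected, is elsewhere.

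**Figure D2:**
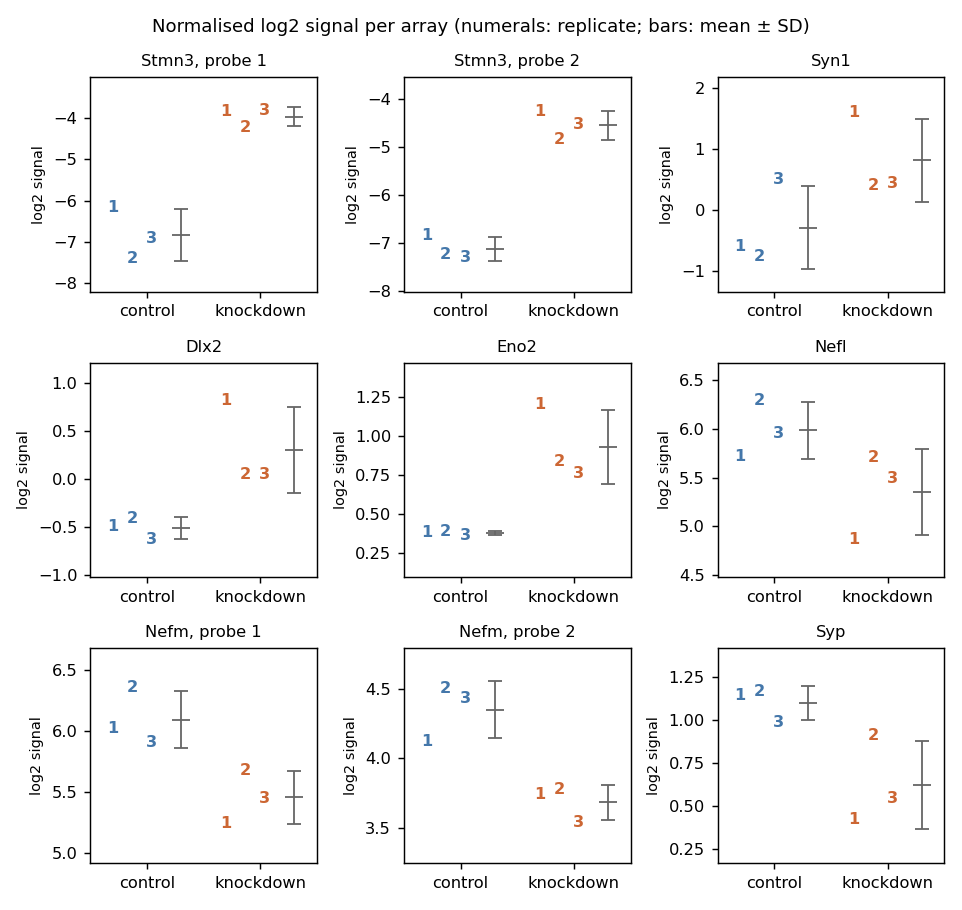
Normalised log2 signal on each array for 7 neuronal genes, with both probes of Stmn3 and Nefm. Each panel has its own y axis in log2 units, numerals are replicate numbers of control (blue) and knockdown (orange) arrays, and bars are mean ± SD of 3 arrays; the Stmn3 groups are apart with both probes, the control signals being not well above background and thus an upper limit, and in Syn1 control replicate 3 lies among the knockdown arrays.

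The remaining cytoskeletal genes, Tubb3 and Gap43, had overlapping groups. Tubb3, the neuronal beta-tubulin, gave 0.57, 0.39 and 0.38 in control and 0.44, 0.61 and 0.59 in knockdown arrays. The Tubb3 groups overlapped, and its log2 fold change was 0.10 with a 95% interval from -0.18 to 0.38, which leaves room for at most a 1.30-fold rise. Gap43, a growth cone protein, gave 4.87, 5.23 and 4.67 in control and 4.89, 5.37 and 5.61 in knockdown arrays. Knockdown replicates 2 and 3 lay above every control array and replicate 1 among them, and the log2 fold change of 0.37 ± 0.22 (SE) had a limma adjusted p of 0.355.

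All 4 synaptic vesicle genes were detected on all 6 arrays, and 0 passed. Syn1, which encodes synapsin I, a protein that tethers vesicles, gave -0.60, -0.77 and 0.49 in control and 1.60, 0.40 and 0.43 in knockdown arrays. Control replicate 3 was as high as 2 of the knockdown arrays, and pair 3 differed by -0.06 while the others differed by 2.20 and 1.16. The log2 fold change of Syn1 was 1.10 ± 0.42 (SE; 95% interval from 0.13 to 2.07; adjusted p = 0.154 in limma), and 0.71 without knockdown replicate 1.

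Syp, which encodes the vesicle membrane protein synaptophysin, gave 1.14, 1.17 and 0.98 in control and 0.42, 0.91 and 0.54 in knockdown arrays. The Syp groups did not overlap, and its log2 fold change was -0.47 ± 0.15 (SE; 95% interval from -0.83 to -0.11; adjusted p = 0.109 in limma). Syt1, the calcium sensor of release, gave -2.59, -2.79 and -3.73 in control and -2.51, -2.63 and -2.93 in knockdown arrays. Control replicate 3 was the lowest of the 6, and the log2 fold change of 0.34 ± 0.29 (SE) became -0.002 without it. Snap25, a SNARE protein of membrane fusion, gave 3.39, 3.03 and 2.66 in control and 2.54, 2.92 and 2.88 in knockdown arrays. Its groups overlapped, with a log2 fold change of -0.25 ± 0.20 (SE, adjusted p = 0.507 in limma). The 2 Snap25 probes are listed for different transcripts, and the second was above background on no array.

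Of the 13 transcription factors, 4 could be tested and 0 passed. Dlx1 and Dlx2 encode homeodomain factors of ventral forebrain progenitors, and they are neighbours on chromosome 2 in the RefSeq gene order. Dlx2 gave -0.49, -0.41 and -0.63 in control and 0.82, 0.04 and 0.05 in knockdown arrays. All 3 knockdown arrays lay above every control array, with replicate 1 the highest, and the log2 fold change was 0.81 ± 0.22 (SE; 95% interval from 0.30 to 1.32; adjusted p = 0.0679 in limma). It was 0.56 without knockdown replicate 1. Dlx1 gave -1.10, -1.16 and -0.63 in control and -0.19, -1.11 and -1.41 in knockdown arrays, so the groups overlapped and the pairs disagreed in direction. Its log2 fold change was 0.06 ± 0.31 (SE), and -0.30 without knockdown replicate 1.

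Neurod2, a factor of maturing excitatory neurons, was above background on all 6 arrays, at -4.78, -4.82 and -4.93 in control and -5.01, -5.21 and -4.57 in knockdown arrays. These are close to the lowest signals flagged as well above background, and the groups overlapped, with a log2 fold change of -0.08 ± 0.18 (SE). Insm1, a zinc finger factor of neuronal progenitors and endocrine cells, gave -3.25, -2.99 and -3.46 in control and -2.53, -2.79 and -3.36 in knockdown arrays. It was higher in all 3 pairs, by 0.71, 0.20 and 0.10, with overlapping groups and a limma adjusted p of 0.414.

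The RNA-binding genes Elavl4 and Celf4 were detected on all arrays, and neither differed beyond the spread. Elavl4 encodes HuD, which stabilises neuronal transcripts, and had 3 probes for 3 transcripts, all above background on all 6 arrays. The brightest gave 1.24, 1.13 and 0.86 in control and 1.31, 1.04 and 0.96 in knockdown arrays. The log2 fold changes of the 3 probes ran from 0.03 to 0.26, with a 95% interval from -0.33 to 0.39 for the brightest in the fit over genes. Celf4, a splicing and translation regulator, gave 1.10, 1.14 and 0.60 in control and 0.27, 0.92 and 0.97 in knockdown arrays. Control replicate 3 and knockdown replicate 1 were both low, and the log2 fold change of -0.22 ± 0.23 (SE) became 0.003 without knockdown replicate 1.

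Eno2, the neuron-specific enolase of glycolysis, had the tightest control arrays of the genes tested, at 0.38, 0.39 and 0.36. The knockdown arrays read 1.20, 0.83 and 0.76, all above the controls. The Eno2 log2 fold change was 0.55 ± 0.14 (SE; 95% interval from 0.22 to 0.89; adjusted p = 0.0624 in limma), and its adjusted p in limma ran from 0.0448 to 0.148 over 9 alternative settings. Ncam1, a cell adhesion molecule that neurons and glial cells carry, had 4 probes, all above background on all 6 arrays. The brightest read 5.24, 5.19 and 5.21 in control and 5.74, 5.31 and 5.39 in knockdown arrays, with a log2 fold change of 0.26 ± 0.14 (SE, adjusted p = 0.309 in limma). The Ncam1 probes disagreed in sign, from -0.31 to 0.26, and 0 of the 4 passed in the fit over probes.

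**Figure D3:**
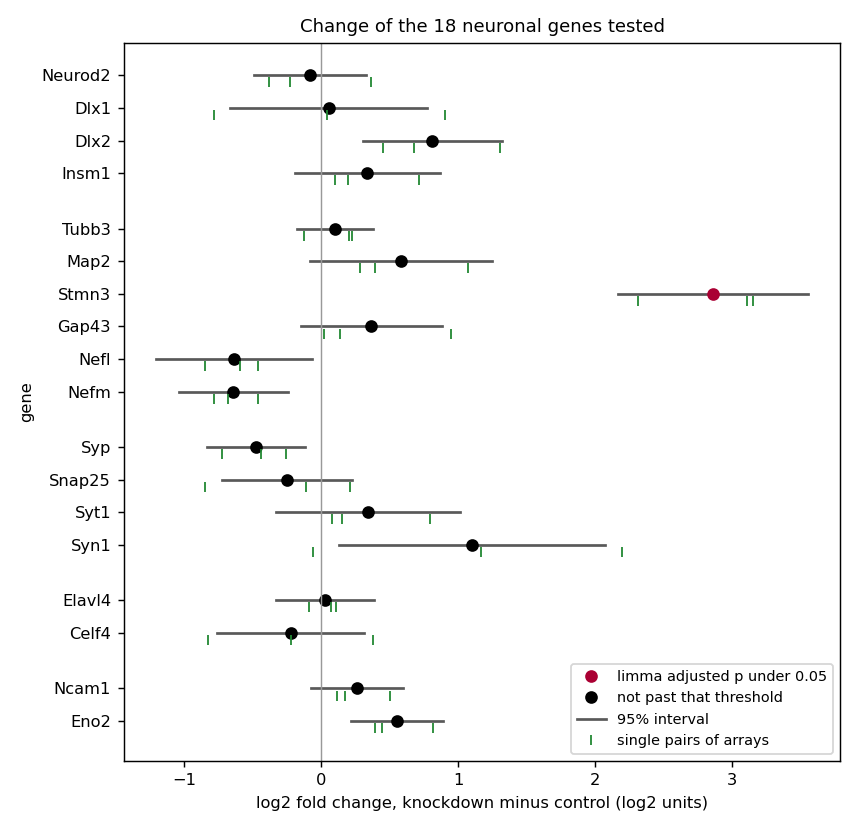
Log2 fold change of the 18 tested neuronal genes, knockdown minus control, on the x axis, with genes on the y axis in order of role. Points are limma estimates with 95% intervals and green ticks are the 3 single pairs; Stmn3 alone passed the threshold, 12 estimates lie above 0 and 6 below, and the Stmn3 point is a measured difference whose control level was not above background.

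Taken without adjustment, 7 of the 18 had a limma p below 0.05, against 24.8% of all genes tested. They were Stmn3, Dlx2, Eno2 and Syn1 on the higher side and Nefl, Nefm and Syp on the lower side. Groups did not overlap for 7 of the 18, 4 higher and 3 lower, or 38.9%, which is near the 32.4% of all genes tested and no result about the group. The 7 genes without overlap were Stmn3, Dlx2, Eno2, Ncam1, Nefl, Nefm and Syp. Stmn3 counts here and among the unadjusted p-values though it was tested only through its knockdown signal. Ncam1 counts as higher by its brightest probe, while another of its probes was lower without overlap (-0.31). With the pair as a replicate block, 1 of the 18 passed, Stmn3 (limma adjusted p = 0.013), against 3.94% of all genes.

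In further lists of 105 neuronal genes chosen by role, 5 of 75 tested genes were called higher and 1 lower, against 4.57% and 2.84% of all genes tested, so these counts are near the background and are no result about the lists. Over these 75 the median log2 fold change was 0.08. Above background on no array were 26 of the 105 genes, of which 1 had no named probe and is not among the 26. By list the share on none ran from 6.25% to 34.4%, against 35.1% of all named genes. Of 15 cytoskeletal genes, Stmn4 rose and Dpysl3 fell. Stmn4, another neuronal stathmin, gave -2.14, -1.47 and -1.36 in control and 0.08, -0.85 and -0.33 in knockdown arrays, with every knockdown array above every control array. Its log2 fold change was 1.29 ± 0.28 (SE, adjusted p = 0.0397 in limma), and it did not pass with the replicate block (0.0916). The 2 probes of Stmn1, the stathmin of dividing cells, had log2 fold changes of 0.02 and 0.03.

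Dpysl3, a collapsin response mediator of axon growth, gave 5.35, 5.48 and 5.44 in control and 4.35, 4.73 and 4.62 in knockdown arrays, with no overlap. It was 1.81-fold lower, a log2 fold change of -0.86 ± 0.13 (SE, adjusted p = 0.0167 in limma), and its 3 probes ran from -0.86 to -0.84 in the fit over probes. Of 17 vesicle and secretory genes, 2 rose. Nsg2, a neuronal endosome protein, gave -5.38, -5.63 and -4.54 in control and -3.05, -3.69 and -2.70 in knockdown arrays, and was above background on 1 control and 3 knockdown arrays. Its log2 fold change was 2.03 ± 0.33 (SE, adjusted p = 0.0184 in limma), which rests on control signals mostly at background, and was 0.66 with normexp background correction (adjusted p = 0.0274). Scg3, a secretogranin of dense-core vesicles, gave -3.20, -2.72 and -2.77 in control and -2.16, -1.83 and -1.76 in knockdown arrays. All 3 pairs of Scg3 were higher, by 1.04, 0.89 and 1.01, a 1.97-fold rise (limma adjusted p = 0.0233), and the log2 fold change was 0.59 with normexp (adjusted p = 0.0381).

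Of 8 RNA-binding genes, Celf5, a relative of Celf4, rose. Celf5 gave -4.73, -5.65 and -4.66 in control, where 2 arrays were above background, and -2.68, -3.48 and -3.65 in knockdown arrays. Its log2 fold change was 1.74 ± 0.33 (SE, adjusted p = 0.0268 in limma), a second probe was above background on no array, and with normexp background correction the change was 0.55 (limma adjusted p = 0.067). Of 21 synaptic and excitability genes, Nrxn2, a presynaptic adhesion protein, rose 1.57-fold (limma adjusted p = 0.0252, and 0.0684 when the replicate block was fitted), from 0.71, 0.81 and 0.89 to 1.58, 1.42 and 1.35. Of 14 further transcription factors, 0 passed in limma and 1 had an unadjusted p below 0.05. Each of the 6 calls was lost when control replicate 1, control replicate 2 or knockdown replicate 3 was left out, with limma adjusted p values from 0.0623 to 0.124.

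**Figure D4:**
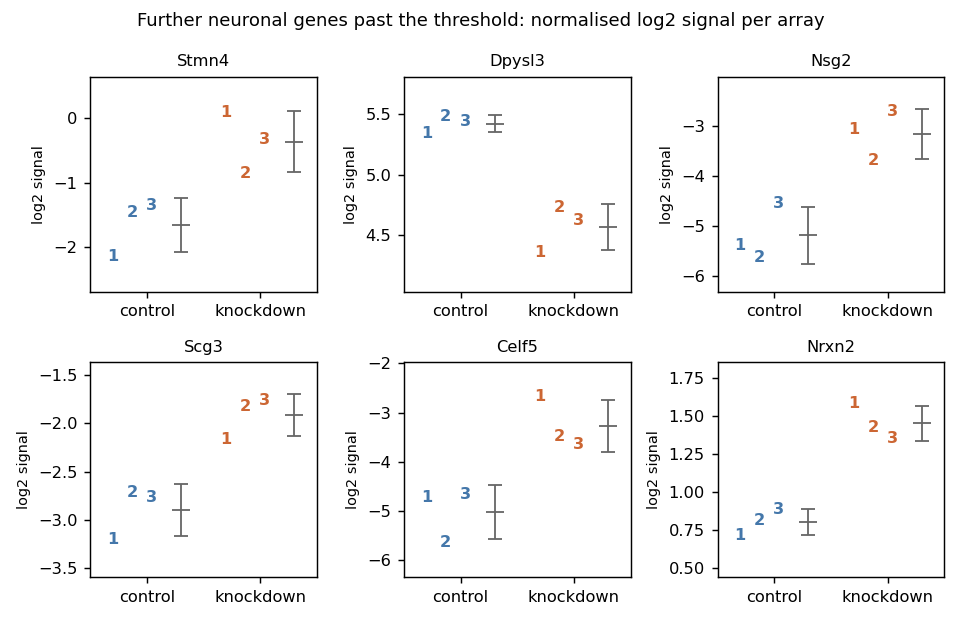
Normalised log2 signal on each array for the 6 genes of the further neuronal lists that passed the threshold. Each panel has its own y axis in log2 units, numerals are replicate numbers of control (blue) and knockdown (orange) arrays, and bars are mean ± SD of 3 arrays; the groups are apart in all 6 panels, with Dpysl3 lower and the others higher in the knockdown.

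Markers of other neural cells were read beside these genes. Of 13 tested astrocyte markers 5 rose and 0 fell, against 4.57% and 2.84% of all genes tested, with a median log2 fold change of 0.45. With the replicate block 3 passed, and without knockdown replicate 1 it was 4. Their summed linear signal, in multiples of the 75th percentile of the array, was 54.1 to 61.9 in control and 89.1 to 120 in knockdown arrays. Most of that sum, and most of its rise, was 1 gene, Clu, so it does not describe the markers as a set. Clu gave log2 signals of 5.20, 5.12 and 5.05 in control and 6.44, 5.93 and 6.09 in knockdown arrays. The largest rises were in Agt, Clu, S100b and Slc1a3, with log2 fold changes of 2.68, 1.03, 1.01 and 0.86 (limma adjusted p from 0.0149 to 0.0399). Each of these genes was lost when control replicate 1, control replicate 2 or knockdown replicate 3 was left out. The highest limma adjusted p over single arrays left out ran from 0.068 (Clu) to 0.139 (Slc1a3). Over the alternative settings that of S100b reached 0.258. Of the astrocyte-defining genes, Gfap was above background on 2 arrays of each group, and Slc1a2 on none. Of 7 tested oligodendrocyte lineage markers 2 rose and 1 fell (1 and 1 without knockdown replicate 1), and Olig2 and Sox10 were above background on none. Their summed signals were 3.97 to 4.29 in control and 3.77 to 4.01 in knockdown arrays. Most of that sum was Pdgfra and Cnp, which moved in opposite directions (log2 fold changes of -0.90 and 0.48), so it does not describe the markers as a set either. The part of these cells in the neuronal values was not tested. In RNA of a whole culture, fewer cells of a type and less RNA per cell cannot be told apart.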

How the data were processed

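Scanner intensity values were deposited by the authors for each array, and per the file headers they came from Feature Extraction 11.0.1.1. The authors' deposited log2 value table equalled log2 of the same intensities minus 1 constant per array, within a tolerance of 0.01, with column medians from -4.47 to -4.22; what the constants were taken from is unknown. Here log2 processed signals were averaged over spots without outlier flags, and the 75th percentile of each array was subtracted. Of 56593 probes read, 32986 (58.3%) were named through their transcript accession in the RefSeq table of GRCm38.p6. Probes were kept where 3 or more of the 6 arrays flagged them well above background, and the probe with the highest mean stood for its gene. Groups were compared with limma 3.58.1 in R 4.3.3 (lmFit and eBayes), with Benjamini-Hochberg adjustment over 14151 genes and a threshold of 0.05, and the code was tested on simulated data. Normexp correction, an alternative, used the median signal because the files read here have no mean-signal column. The labels give a shared day for arrays of the same number, so the numbers pair the arrays. Same-numbered arrays had correlations of -0.08, 0.58 and -0.25 between their deviations from the group means. All arrays were on 1 slide with 1 scan date. The genes and lists were chosen with earlier results of these data known. All 38 genes are named, with values per array for those called, those above background on all 6 arrays and those whose detection differed; of the further lists, up to 4 called genes per direction are named. Other alternatives were quantile normalization, the percentile over detected probes, the deposited table, other filters, the mean of probes, an intensity trend, the replicate block and leaving out arrays or pairs.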

Additional observations from a re-analysis of the deposited data

How the results depend on the processing

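Against 1 neuronal gene past the threshold, 2 passed with quantile normalization, 2 with the percentile over detected probes and 2 with the mean of probes. An intensity trend gave 4. When all 6 arrays had to be above background, which leaves Stmn3 out, 0 passed. With normexp 1 passed, but it was Nefm, which was lower (limma adjusted p = 0.0424), while Stmn3 did not pass (limma adjusted p = 0.194). Leaving out arrays or pairs gave 0 to 1. Against 2 neuronal probes, normexp, the filter on all 6 arrays and the replicate block each gave 0, and leave-outs gave 0 to 2. The median of 0.18 became 0.115 with normexp, 0.118 with the mean of probes, 0.043 with no filter and 0.079 with the filter on all 6, and ran from 0.142 to 0.258 without single arrays and was 0.099 without pair 3. Over all genes, 1048 calls became 357 with no filter and 558 with the replicate block, and ran from 0 (without pair 3) to 840 over leave-outs; single arrays gave from 14 (without control replicate 1) to 840, and pairs 343, 81 and 0. Against 8 calls in the further and REST lists, 5 genes passed with no filter, and leave-outs gave 0 to 7. With no filter Dpysl3, Nsg2 and Id3 were kept. Stmn4, Scg3, Nrxn2, Celf5 and Id2 were lost (limma adjusted p from 0.0576 to 0.0922), so the other passing genes were not among the 8. Without pair 3 Ggct was at -2.96 (limma adjusted p = 0.125). Direction turned in leave-outs for 6 genes that never passed: Dlx1 (-0.011 without control replicate 1, -0.041 without control replicate 2, -0.30 without knockdown replicate 1, -0.367 without pair 1, up to 0.31 over single arrays and 0.474 without pair 3), Syt1 (-0.002 to 0.565), Elavl4 (-0.081, -0.073 and -0.010, up to 0.112), Celf4 (0.003 and 0.079, down to -0.396 over single arrays and -0.521 without pair 3), Neurod2 (0.058 and 0.069, down to -0.262 over single arrays and -0.303 without pair 3) and Snap25 (0.052). The cause was not tested. Signals near background and the number of arrays limit what can be seen.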
